A study of Canis lupus familiaris with 4 samples.

Results

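The proteasome is the protease that degrades proteins tagged with ubiquitin, and the tag is attached by conjugating enzymes and removed by deubiquitinating enzymes. The genes described here are those whose clones carry a single symbol of the families PSMA to PSMG, UBE2 or USP and which gave a value on at least 1 array of each transfectant. They number 62, out of 74 genes of these families on the array and out of 9575 features measured in the series, 5320 of them named genes. By role they are 13 subunits of the proteasome core, 12 of its regulatory cap, 4 activators, inhibitors or assembly chaperones, 9 conjugating enzymes and 24 deubiquitinating enzymes.

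The samples were MDCK cells, an established epithelial line from canine kidney, transfected with E2-2 (TCF4), a class I basic helix-loop-helix factor that binds E-box sequences. The transfectants E22A and E22B, taken here as carrying isoforms A and B of E2-2, were each compared with MDCK-CMV control cells on 2 spotted cDNA arrays. Their medium was DMEM containing Glutamax-1, serum, antibiotics and fungizone, and the RNA was amplified before labelling. The series' design text calls each transfectant a clone and describes a dye swap within each, so a transfectant is 1 biological sample and its SD below is over 2 arrays. The promoter that drives E2-2 is not stated in the labels, and the name CMV is attached only to the control.

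In the proteasome, a ring-shaped core of alpha and beta subunits holds the cutting sites, and 3 of the beta subunits (PSMB5, PSMB6 and PSMB7) are the proteases. The cap recognises ubiquitin chains, unfolds the protein with its ATPases (PSMC) and strips the chain off, while assembly chaperones such as PSMG2 build the core. In epithelial cells ubiquitin-dependent degradation controls the turnover of junction proteins and of many transcription factors, bHLH proteins among them.

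Every value below is a ratio on the log2 scale against the control, after centring each array on its median. The base of the logarithm is an assumption from convention. Positive values lie on the side on which CDH1 (E-cadherin) lies in E22B, where its 2 arrays stood at 2.39 and 0.85, and negative values on the side of FN1 (fibronectin), at -2.08 and -1.36. The labels do not say which dye is the numerator, so a side cannot be read as higher or lower in the transfectants. With Cy5 on top the CDH1 side would be the higher one, and this direction opposes the known action of E2-2, a repressor of E-cadherin.

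For E22B the titles and the channel labels name the same dyes, and across features its deposited arrays had a correlation of r = -0.40, so the sign of the first was turned. For E22A they disagree on array 1. As deposited its arrays correlated at r = 0.37, and the titles, which turn them against each other, would make this correlation negative by the same amount, past the limit of -0.3. E22A therefore has no settled direction. Its array values are printed by the channel labels, array 2 has the same sign in both readings, and the title reading turns the sign of array 1 only. By the channel labels CDH1 stood at 2.13 and 1.13 in E22A and FN1 at -2.68 and -1.89, on the same sides as in E22B. The titles turn array 1 to -2.13 for CDH1 and 2.68 for FN1, so that each gene changes side between the E22A arrays. The channel labels place E22A in the Cy3 channel on either array, so that its means keep any dye effect of a gene.

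A ratio gives no level, so the labelled cell type could not be checked on its markers. Of 6 kidney epithelial markers 5 gave values; in E22B CDH16 stood at 0.02 on both arrays, PAX8 at -0.08 and 0.18, EPCAM at 2.56 and -0.48 and KRT8 at -0.75 and -0.04, beside CDH1 given above. Of 6 fibroblast markers 3 were measured, with COL1A2 at 0.17 and 3.21, LUM at -0.96 and -0.28 and THY1 at 0.29 and 0.12. Of 4 leukocyte markers all were measured, the value farthest from 0 in E22B being that of PTPRC, 0.38 on array 1. Their part in the results below was not tested. In bulk RNA, fewer cells of a type and less RNA per cell cannot be told apart.

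Most of these genes lay within 0.5 of the control, but a smaller share of them did than of all features. Of the 62 genes, 42 (67.7%) were under 0.5 on every array with a value, against 75.6% of all features. A value of 1 or more, a 2-fold ratio, was reached on at least 1 array by 6 genes (9.68%), against 6.41% of all features. PSMB7, a catalytic core subunit, passed a 2-fold ratio on both E22B arrays and on 1 side, 1 of 62 genes where 0.671% of all features met this rule. It lay on the CDH1 side, with 0.576% of features. Of the 57 genes with both E22A arrays none met it by either reading. By the channel labels 0.385% of features did, and 0.0340% by the titles, 0.0226% on the CDH1 side and 0.0113% on the other.

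**Figure D1:**
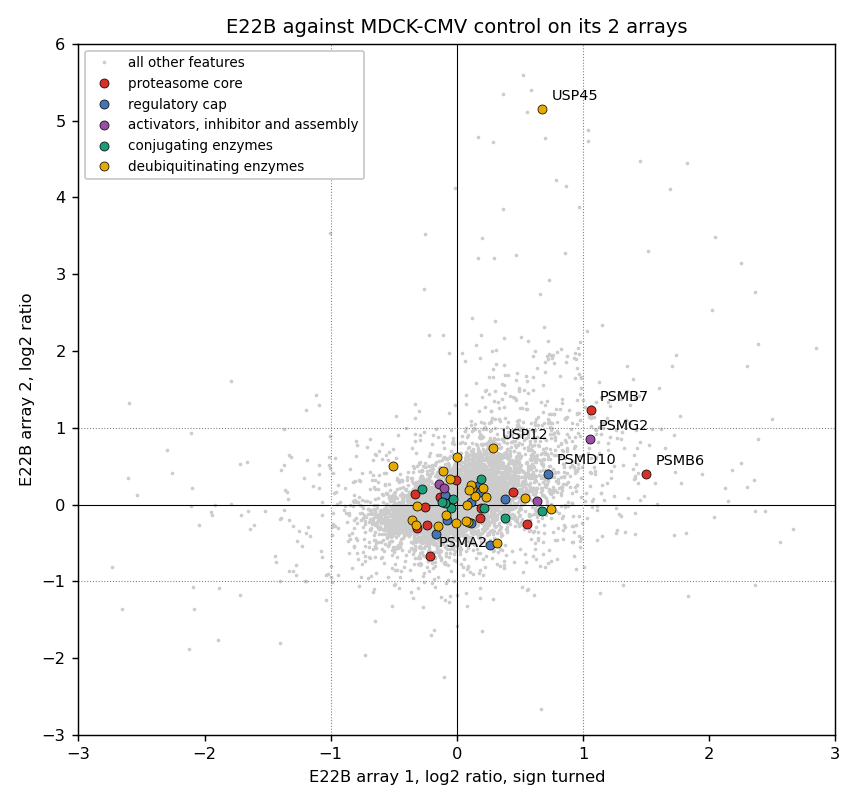
Log2 ratio to MDCK-CMV on E22B array 1 (sign turned) against array 2, with the 62 genes coloured by class and all other features in grey (14 features lie outside the axes). Dotted lines mark 1 log2 unit. PSMB7 is past 1 on both arrays, PSMG2 and PSMB6 past 1 on array 1, and USP45 at 5.15 on array 2 only.

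The core subunits were divided. In the alpha ring, which forms the gate of the core, 1 of 6 measured genes lay on the CDH1 side of both E22B arrays, 2 on the FN1 side, and 3 changed side between the arrays. Of all features 34.8% lay on the CDH1 side of both and 35.2% on the FN1 side. PSMA2 stood at -0.21 and -0.67 in E22B, a mean of -0.44 ± 0.32 (SD, n = 2 arrays). In E22A it stood at -0.45 and -1.02, a mean of -0.74 ± 0.40 by the channel labels, which the titles make -0.29 ± 1.04. PSMA7 stood at -0.32 and -0.30 in E22B and at -0.10 and -0.49 in E22A. Its 2 clones lay on the same side in E22B, at means of -0.24 and -0.38. PSMA4 stood at 0.44 and 0.16 in E22B, but its E22A arrays fell on either side, at 0.32 and -0.21. PSMA6 changed side in E22B, at 0.56 and -0.25, and its clone means there were -0.02 and 0.33. PSMA1 (0.19 and -0.05) and PSMA5 (0.19 and -0.17) changed side as well.

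In the beta ring the catalytic subunits did not move as one. PSMB7, the trypsin-like subunit, stood at 1.06 and 1.22 in E22B, a mean of 1.14 ± 0.12 and a 2.21-fold ratio. PSMB6, the caspase-like subunit, stood at 1.50 and 0.40, a mean of 0.95 ± 0.78. PSMB5, the chymotrypsin-like subunit, stood at -0.33 and 0.14, a mean of -0.09 ± 0.33. Both PSMB7 arrays therefore lay above both PSMB5 arrays, and so did both PSMB6 arrays. In E22A by the channel labels the 3 subunits lay within their spread of each other, at means of 0.39 ± 0.04 for PSMB7, 0.38 ± 0.38 for PSMB6 and 0.33 ± 0.32 for PSMB5. By the titles they stood at 0.03 ± 0.56, -0.27 ± 0.54 and 0.22 ± 0.46.

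PSMB7 rests on 1 clone in E22B, whose duplicate spots differed by 0.05 on each array. Its other clone gave a value on E22A array 2 only, at 0.06 by the channel labels where the first stood at 0.79. With the first clone alone the E22A arrays stand at 0.37 and 0.79 by the channel labels, a mean of 0.58 in place of 0.39. The SD of 0.04 given above therefore mixes clones on array 2 only and understates the spread of the first clone. PSMB10, which takes the place of PSMB7 in the interferon-induced immunoproteasome, stood at -0.14 and 0.10 in E22B and 0.09 and 0.13 in E22A. PSMB8, another immunoproteasome subunit, had a value on E22A array 2 alone. The structural subunits PSMB1 (-0.23 and -0.27 in E22B), PSMB3 (-0.0040 and 0.32) and PSMB4 (-0.25 and -0.03) stayed under 0.5 on all 4 arrays. In E22A by the channel labels 6 of 7 beta subunits lay on the CDH1 side of both arrays, and 0 of 6 alpha subunits did, of which 3 lay on the FN1 side. In the whole core 6 of 13 were on the CDH1 side and 3 on the FN1 side of both, against 32.8% and 34.6% of all features; by the titles 4 of 13 kept their side, against 32.5% of features. The difference between the rings was not tested.

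**Figure D2:**
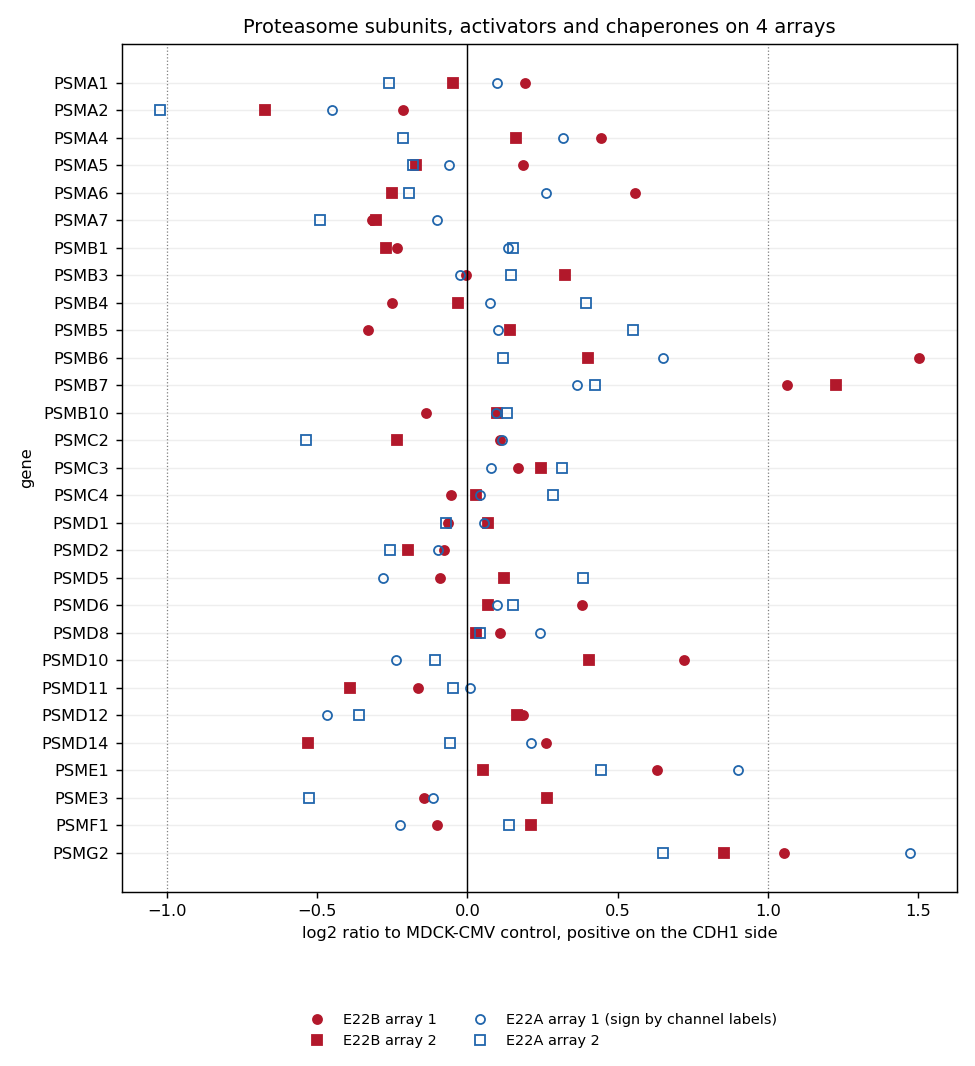
Log2 ratio to MDCK-CMV of the 29 proteasome genes on each array, E22B filled and E22A open, circles for array 1 and squares for array 2; the E22A array 1 sign follows the channel labels and is reversed by the titles. Most points lie within 0.5 of 0, and PSMB6, PSMB7 and PSMG2 extend past 1 on the CDH1 side.

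In the regulatory cap the E22B means ran from -0.28 (PSMD11) to 0.56 (PSMD10) around a median of 0.0086. Under 0.5 on every array were 9 of its 12 genes, a share near the 75.6% of all features. PSMD10 (gankyrin), an assembly chaperone of the cap base that also binds cyclin-dependent kinase 4, stood at 0.72 and 0.40 in E22B. In E22A it stood on the other side by the channel labels, at -0.24 and -0.11, and at a mean of 0.06 ± 0.24 by the titles. PSMD12, a lid subunit, likewise stood at 0.18 and 0.16 in E22B and at -0.47 and -0.36 in E22A.

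Of the ATPases, PSMC3 stood at 0.17 and 0.24 in E22B and 0.08 and 0.32 in E22A, although its E22A arrays were measured by different clones. PSMC2 changed side within both transfectants (0.11 and -0.24 in E22B, 0.11 and -0.54 in E22A). PSMC4 was nearest to the control, at -0.05 and 0.03 in E22B. Among the other lid subunits PSMD6 stood at 0.38 and 0.07 and PSMD11 at -0.16 and -0.39. PSMD14, the deubiquitinating enzyme built into the lid, stood at 0.26 and -0.53, a mean of -0.13 ± 0.56. The scaffold subunits PSMD1 and PSMD2 had E22B means of 0.0018 and -0.14. The clones of PSMD1 lay on opposite sides there, at means of 0.140 and -0.137, and cancel in its mean. The base chaperone PSMD5 stood at -0.09 and 0.12 in E22B. PSMD8, a lid subunit, kept to the CDH1 side of both E22B arrays at 0.11 and 0.03, and its clones agreed at 0.07 each.

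PSMG2, which pairs with PSMG1 to assemble the alpha ring, stood at 1.05 and 0.85 in E22B, a mean of 0.95 ± 0.14 and a 1.94-fold ratio. In E22A it stood at 1.47 and 0.65 by the channel labels, a mean of 1.06 ± 0.58, and at -0.41 ± 1.50 by the titles. It has 1 clone, whose duplicate spots differed by at most 0.07 on any array. PSMG1, its partner, had no value on any array. PSME1, the alpha subunit of the PA28 activator that caps the immunoproteasome, stood at 0.63 and 0.05 in E22B and 0.90 and 0.44 in E22A. PSME3, the nuclear PA28 gamma, stood at -0.14 and 0.26 in E22B and -0.11 and -0.53 in E22A. PSMF1, the inhibitor PI31, changed side in both, at -0.10 and 0.21 in E22B and -0.22 and 0.14 in E22A.

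The conjugating enzymes had the smallest median size of the E22B mean among the classes, at 0.05 against 0.15 for all features. In E22A by the channel labels this median was 0.12 against 0.13. Their means ran from -0.05 (UBE2Z) to 0.30 (UBE2G1). Of the 9, 7 changed side between the E22B arrays, where 70.1% of all features kept theirs. Values of opposite sign cancel in a mean, so a small mean alone does not show arrays close to the control. UBE2L6, which conjugates the ubiquitin-like protein ISG15, stood at 0.19 and 0.34 in E22B and 0.41 and 0.69 in E22A by the channel labels. Its mean in E22A by the titles was 0.14 ± 0.78. UBE2G1 stood at 0.68 and -0.09 in E22B and at 1.02 on E22A array 1, its only value there, which the titles turn to -1.02. UBE2E3 stood at -0.04 on both E22B arrays, where its clones stood at means of -0.08 and -0.0047.

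The RAD6 homologues UBE2A and UBE2B, near-identical enzymes of histone and DNA damage ubiquitination with cross-hybridisation not tested, had E22B means of 0.02 ± 0.08 and 0.10 ± 0.40. UBE2C, the partner of the anaphase-promoting complex, stood at -0.27 and 0.21, and its clones lay on opposite sides at 0.14 and -0.21. UBE2G2, of endoplasmic reticulum degradation, stood at -0.09 and 0.02. UBE2V2, a partner without catalytic activity, stood at 0.21 and -0.04 in E22B and -0.05 and -0.36 in E22A. UBE2Z, which is charged by the activating enzyme UBA6, stood at -0.24 and -0.16 in E22A by the channel labels.

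Among the deubiquitinating enzymes USP45 stood far apart on E22B array 2, and it was also the farthest from 0 on both E22A arrays. It was at 0.68 and 5.15 in E22B, a mean of 2.92 ± 3.16, and at -0.74 and -0.89 in E22A by the channel labels. The 2 arrays of E22B thus stood farther apart than their mean stood from 0. Its duplicate spots stood at 6.34 and 3.97 on E22B array 2, a gap of 2.37, where the next largest gap among 301 pairs of spots of these genes was 0.27 and the median gap 0.02. On the other arrays the USP45 spots differed by at most 0.10.

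The other 23 USP genes had E22B means from -0.29 to 0.51 around a median of 0.13. USP12, which acts with the cofactor WDR48 and removes ubiquitin from histones, stood at 0.29 and 0.73 in E22B. In E22A it stood at -0.27 and 0.48, so the arrays keep the CDH1 side by the titles (0.37 ± 0.15) and change side by the channel labels (0.11 ± 0.53). Its relative USP46 stood at 0.11 and 0.25 in E22B and had a single E22A value, -0.28. USP42 (-0.32 and -0.27) and USP18, which removes ISG15 (-0.36 and -0.20), were farthest to the FN1 side in E22B. USP7, which stabilises MDM2 and p53, stood at -0.15 and -0.28, and USP5, which takes apart free ubiquitin chains, at -0.32 and -0.01.

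USP15, a regulator of TGF-beta receptor signalling, stood at 0.54 and 0.08 in E22B and 0.15 on the E22A array that measured it. USP16, a histone H2A deubiquitinase, stood at 0.75 and -0.06 in E22B. USP14, which sits on the proteasome cap, stood at -0.0013 and 0.61. Both were large on 1 array only. USP25 stood at -0.50 and 0.50 and USP48 at 0.32 and -0.50, so that each had the same sign on both arrays as deposited and means near 0 after turning. USP21 lay on the FN1 side in E22B (-0.0076 and -0.24) and on the CDH1 side in E22A by the channel labels (0.35 and 0.28). USP2, USP4 and USP20 lay on the CDH1 side of both E22B arrays, at means of 0.21 ± 0.0037, 0.17 ± 0.07 and 0.13 ± 0.02, and none of them passed 0.5 on any array. USP39, a splicing factor of the family without protease activity, stood at 0.23 and 0.10. USP11 (-0.11 and 0.44), USP13 (0.09 and -0.23) and USP33 (0.07 and -0.22) changed side between the E22B arrays, and so did USP24 (0.08 and -0.0064). USP29, for which the dog gene table has no gene of the same symbol, stood at -0.09 and -0.14. USP9X, a large deubiquitinase that binds catenins, stood at 0.10 and 0.19 in E22B, and USP22, of the SAGA complex, at -0.05 and 0.33. Several of these values are means of clones that disagreed. In E22B the clones of USP22 stood at 0.32 and -0.05, those of USP24 at -0.31, 0.18 and 0.25, and those of USP13 at -0.26 and, on array 1 alone, at 0.48. In all, 7 of the 15 genes with clones to compare in E22B had them on both sides of 0.

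**Figure D3:**
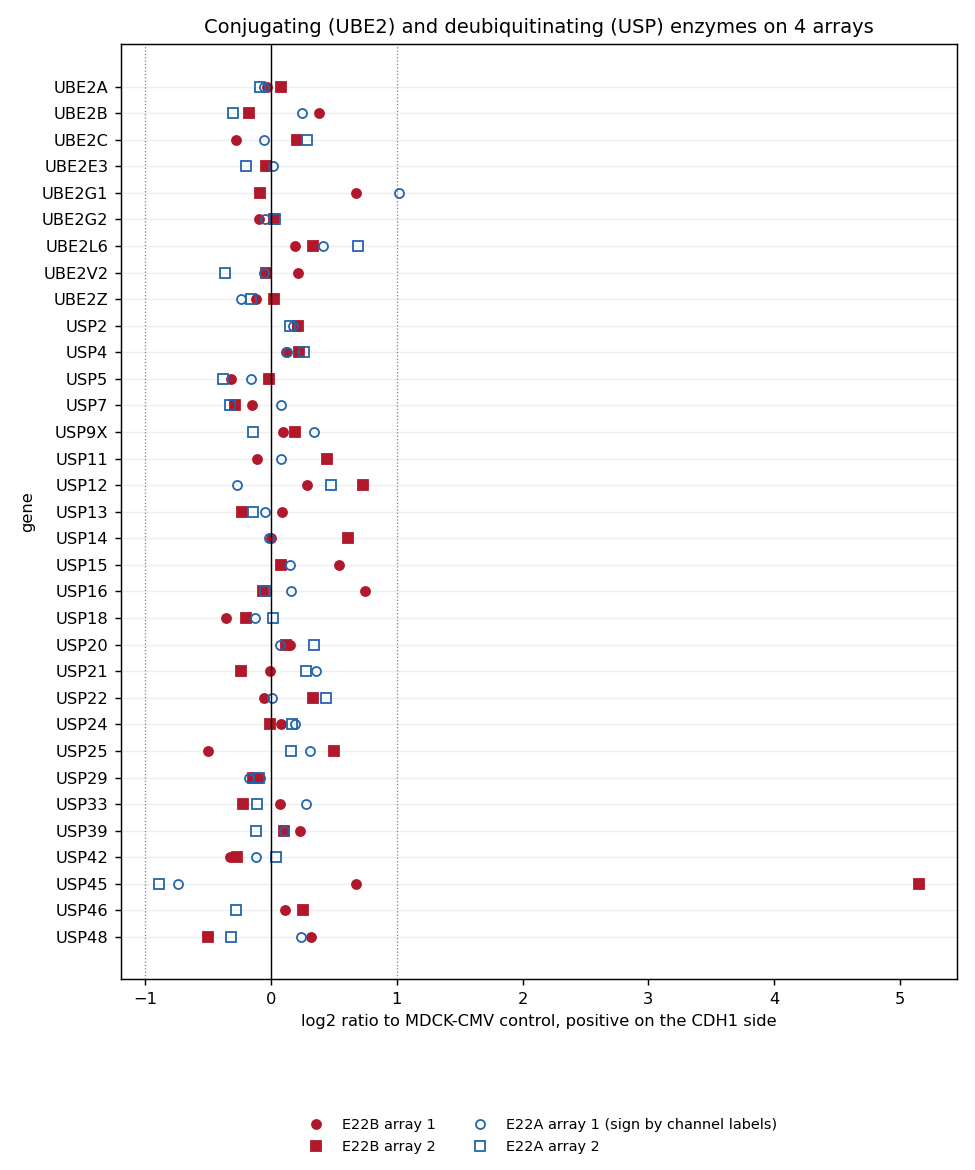
Log2 ratio to MDCK-CMV of the 9 UBE2 and 24 USP genes on each array, with symbols and signs as for the proteasome genes. USP45 reaches 5.15 on E22B array 2 and lies between -0.89 and 0.68 on the others, and UBE2G1 reaches 1.02 on E22A array 1.

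Set side by side, the classes had E22B medians of 0.0071 (core), 0.0086 (cap), 0.20 (activators, inhibitor and assembly), 0.02 (conjugating) and 0.14 (deubiquitinating), against -0.00079 for all features. By the channel labels their E22A medians were 0.06, 0.02, 0.31, -0.02 and 0.07, and by the titles -0.06, -0.00025, -0.22, -0.02 and -0.06. The class of 4 activators and chaperones thus had the median farthest from 0 in each, and its sign in E22A depends on the reading. The core median in E22B was -0.03 without array 1 and -0.0040 without array 2, on the FN1 side each time, where the median of the means was 0.0071. The conjugating median was 0.02 and -0.03, so it changed side between the arrays. The deubiquitinating median was 0.0915 and 0.0857 without array 1 and array 2, and 0.0191 with only clones measured on all 4 arrays. The cap median was 0.0484 and 0.109 without them, and that of activators and chaperones stood at 0.238 and 0.266. No test between classes was made, since the genes are not replicates.

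On the 2 E22B arrays 33 of the 62 genes (53.2%) kept their side, against 70.1% of all features, and the other 29 changed it. Of the 33, 20 lay on the CDH1 side and 13 on the FN1 side, where 34.8% and 35.2% of all features did. By class, 3 core, 5 cap, 2 activator or chaperone, 1 conjugating and 9 deubiquitinating genes kept the CDH1 side. In E22A 34 of 57 genes with both arrays had the same sign on both as deposited (59.6%), against 67.5% of all features. By the titles the other 23 kept their side (40.4%), where 32.5% of all features did, 16.3% on the CDH1 side and 16.2% on the FN1 side. The median SD over the arrays was also wider for these genes than for all features, at 0.17 against 0.11 in E22B and 0.16 against 0.10 in E22A by the channel labels. At 0.5 or more on both arrays stood 3 genes in E22B (PSMB7, PSMG2 and USP45), where 4.09% of features did. All 3 lay on the CDH1 side, with 3.35% of features. In E22A by the channel labels 2 did, where 2.86% of features did: PSMG2 on the CDH1 side, with 1.99%, and USP45 on the FN1 side, with 0.872%. By the titles 0 did in E22A, against 0.475% of features.

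**Figure D4:**
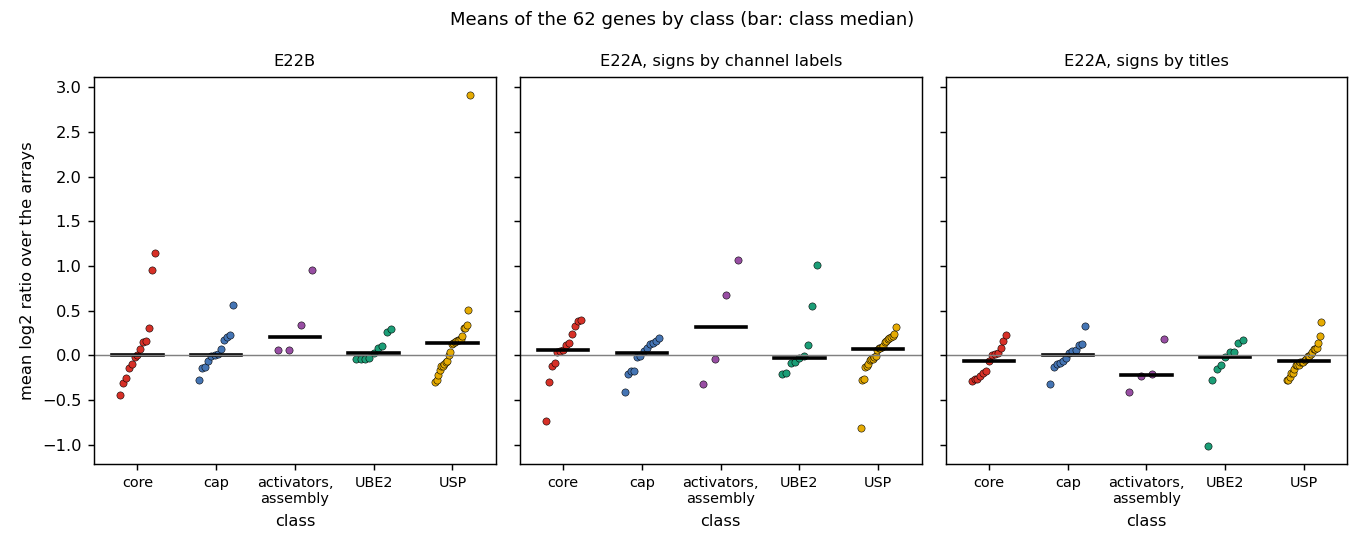
Mean log2 ratio over the arrays for each of the 62 genes, by class (bars mark class medians), in E22B and in E22A by both readings. Class medians lie between -0.22 and 0.31 throughout, and PSMB7, PSMG2 and USP45 have the highest E22B means of their classes.

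Pooling E22A and E22B as replicates of E2-2 transfection tests whether the average of their means differs from 0. It does not require a gene to move in both. Limma called 0 of the 62 genes at an adjusted p under 0.05 in either reading, where 0 of all features were called as well. At an unadjusted p under 0.05 there were 2 genes by the titles (PSMA2 and USP12), against 3.26% of all features, and 8 by the channel labels, against 12.7%. The 8 are 12.9% of the 62, a share near that of all features. By the channel labels the smallest limma adjusted p was that of PSMG2 (1.01 ± 0.09, SE, adjusted p = 0.0889), with all 4 arrays on the CDH1 side. Its adjusted p ran from 0.0404, without E22B array 2, to 0.324 over the alternatives of this reading, and by the titles it was 0.987. The other 7 were PSMB6, PSMB7, PSME1, UBE2L6 and UBE2G1 on the CDH1 side and PSMA2 and PSMA7 on the other (limma adjusted p from 0.181 to 0.322). Of these UBE2G1 changed side between the E22B arrays, at 0.68 and -0.09, and had a value on E22A array 1 only. With all 4 arrays in one limma fit, 34 features were called by the channel labels (0.355%) and 0 of the 62 genes. The transfectants share 1 control RNA, whose own spread no test here includes, and the test rests on 2 transfectants.

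E22A against E22B asks whether the isoforms differ, and with 1 sample each no test was made. By the titles 4 of the 62 genes differed by 1 or more without overlap of the arrays, where 2.14% of features did. All 4 lay farther to the FN1 side in E22A, as did 1.63% of features. These were PSMG2 (E22A minus E22B -1.36), UBE2G1 (-1.31), PSMB6 (-1.22) and PSMB7 (-1.11). UBE2G1 rests on 1 E22A array. The PSMB7 value on E22A array 2 averages the first clone, at 0.79, with a clone at 0.06 that has no E22B value. With only clones measured on all 4 arrays PSMG2 and PSMB6 keep the difference, PSMB7 falls under 1 and UBE2G1 has no clone. By the channel labels 1 gene did, USP45 (-3.73), where 1.78% of features did, and the 4 named above stood at 0.11, 0.72, -0.57 and -0.75. USP45 keeps the difference without E22B array 2, at -1.49.

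Other genes of the ubiquitin system gave the surroundings, from lists of 172 symbols in all, of which 73 were measured. None was at 1 or more on both E22B arrays, where 0.671% of all features were. At 0.5 or more stood 2, against 4.09% of all features, both on the CDH1 side, with 3.35% of features. ATXN3, a deubiquitinase that trims ubiquitin chains, stood at 0.84 and 0.53. HERPUD1, which recruits the degradation machinery to the endoplasmic reticulum, stood at 1.32 and 0.73 in E22B and 2.40 and 1.89 in E22A by the channel labels. The ligases MDM2 (0.49 and 0.58) and BIRC2 (0.47 and 0.75) had the largest means of 43 ligase genes, whose median was 0.01. VCP, the segregase that pulls ubiquitinated proteins from membranes and complexes, stood on the FN1 side at -0.17 and -0.70.

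ISG15, the modifier carried by UBE2L6 and removed by USP18, stood at 0.30 and 0.24 in E22B and 0.16 on each E22A array by the channel labels. NAE1, of the NEDD8 activating enzyme, stood at 0.32 and 0.33 in E22B, and COPS8, the only COP9 signalosome subunit measured, at 0.09 and 0.75. On the FN1 side were CYLD, a deubiquitinase of NF-kappa-B signalling (-0.61 and -0.08), the autophagy genes MAP1LC3B (-0.31 and -0.04) and ATG7 (-0.11 and -0.09), and TXNL1, a thioredoxin of the proteasome cap (-0.23 and -0.20). ERAP1, which trims peptides made by the proteasome, stood at 0.28 and 0.13. The list's median in E22B was 0.02, and limma called 0 of the 73 in either reading. At an unadjusted limma p under 0.05 there were 4 by the titles, against 3.26% of all features, and 8 by the channel labels, against 12.7%. The genes of ubiquitin itself gave no value in both transfectants.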

How the data were processed

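The authors deposited 1 log ratio of the dyes per spot and array, taken here as log2, for 27648 spots of 13824 clones. No label states the scanning, background correction, filter, normalisation, log base or numerator. The deposited medians lay between -0.0099 and 0.0029, so the columns had been centred. Spots with a value numbered from 22360 to 23136 per array; signal over background is unknown, and precision is limited by there being 2 arrays a transfectant.

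Duplicate spots were averaged, arrays centred on their median, and clones with 1 symbol in the platform annotation averaged by gene on each array. Clones with several symbols were left out of the genes, such as that of PSMB9. The array carries human clones read with canine RNA; 61 of the 62 symbols occur in the dog gene table. Among the genes 57 had values on all 4 arrays and 5 lacked 1, and a mean is then over the arrays left.

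The pooled test used limma 3.58.1 in R 4.3.3 (lmFit and eBayes on 1 mean per transfectant against 0, Benjamini-Hochberg over 9575 features, threshold 0.05). It was also run on simulated data with the same spread for every feature and shifts larger than any pooled estimate of these genes. That run cannot show how many changes of the sizes seen here the test would miss. A single transfectant has no test, so genes were counted at 1 log2 unit or more on the same side of both arrays. Tables were handled in Python 3.11.15. Named genes were those past a rule, the 4 of each class farthest from 0 in E22B and the 2 in E22A, among those on 1 side of both its arrays, the catalytic and immunoproteasome subunits, and the 5 with the widest E22B arrays; the rest of the 62 are given for completeness. In other pathway lists they were the 2 farthest from 0 among those on 1 side of both E22B arrays. Members, lists and alternatives were chosen with earlier results of these data known. Alternatives changed the reading, centring, scaling, clones, spots, threshold, fit and arrays kept.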

Additional observations from a re-analysis of the deposited data

Results flagged for a closer look

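Every array of one transfectant lay on the side opposite to every array of the other in 6 genes by the channel labels and in 5 by the titles. The rule asks for no size, and the share of all features that meet it was not counted. These counts therefore cannot be read as a trait of the 62 genes, and none of the differences was tested. By the channel labels E22A minus E22B was -3.73 for USP45, -0.74 for PSMD10, -0.59 for PSMD12, 0.44 for USP21, 0.39 for PSMB1 and 0.38 for PSMB4. By the titles it was -0.57 for PSMA4, -0.39 for USP9X, 0.37 for USP42, 0.35 for USP18 and -0.28 for USP39. For USP45 the value is -1.49 without E22B array 2, where its duplicate spots stood 2.37 apart. For USP21 one E22B array was at -0.0076, next to the control. No group had the 4 samples needed to look for a single sample far from the others.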

How the results depend on the processing

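No paired analysis was possible because the labels carry no replicate numbers. The pooled count of 0 of the 62 genes held in each alternative run except without E22B array 2 by the channel labels, where PSMG2 was called (limma), so leaving out 1 array gave 0 to 1 there and 0 by the titles. The count of 1 gene at 2-fold in E22B became 3 at 0.5, where 4.09% of all features did. It was 2 without E22B array 1 and 3 without E22B array 2, a range of 1 to 3 over the arrays left out. The count stayed at 1 under the other alternatives run. With 1 array of a transfectant left out the rule asks for the remaining array only, so it is looser for every feature. In E22A the count of 0 became 2 at 0.5 by the channel labels, where 2.86% of all features did. In either reading it was 1 without E22A array 1 and 2 without E22A array 2, a range of 0 to 2. The 4 genes differing between transfectants by the titles became 2 with clones complete on all 4 arrays, 1 by the channel labels, 1 with channel 2 over channel 1, and 1 to 5 without 1 array, the 1 being without E22A array 1. The 1 gene by the channel labels became 4 by the titles, 6 with the E22A pair turned, and 1 to 2 without 1 array, the 2 being without either E22B array. The difference of PSMG2 by the titles reversed to 0.11 by the channel labels, and that of UBE2G1 to 0.72 there and with channel 2 over channel 1; by construction the sign of E22A array 1 sets both.

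Class medians moved by more than the SD of their 2 arrays as follows, and for those not set by the sign of an array the cause was not tested. In E22B the deubiquitinating median of 0.135 became 0.131 without centring, 0.126 with arrays scaled alike, 0.142 with the median of clones, 0.141 with both spots required and 0.0191 with clones complete on all 4 arrays. Leaving out 1 array gave 0.0857 to 0.0915 for it, -0.0315 to -0.0040 for the core, 0.0484 to 0.109 for the cap, 0.238 to 0.266 for activators and chaperones and -0.0311 to 0.0204 for conjugating enzymes. In E22A by the channel labels the core became 0.0810 with arrays scaled alike, -0.0606 by the titles and -0.0606 with the pair turned. Activators and chaperones became -0.217 by the titles, 0.217 with channel 2 over channel 1 and -0.315 with the pair turned, and deubiquitinating enzymes -0.0608 by the titles and -0.0664 with the pair turned. By the titles the cap became -0.0054 with arrays scaled alike, -0.0288 with complete clones, 0.0217 by the channel labels and -0.0217 with the pair turned. Activators and chaperones became 0.315 by the channel labels, and deubiquitinating enzymes -0.0246 with complete clones, 0.0664 by the channel labels and 0.0608 with channel 2 over channel 1. Without 1 E22A array the channel-label medians ran from 0.0982 to 0.118 (core), -0.0530 to 0.0498 (cap), 0.292 to 0.393 (activators and chaperones), -0.122 to -0.0510 (conjugating) and -0.0502 to 0.0777 (deubiquitinating). In the same order the title medians ran from -0.0982 to 0.118, -0.0530 to -0.0498, -0.393 to 0.292, -0.122 to 0.0510 and -0.0777 to -0.0502.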

Other observations

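Of the 12 genes of these families left out for want of a value in a transfectant, 3 were measured on both arrays of the other. UBE2Q2, a conjugating enzyme, stood at 0.41 and -0.58 on the E22B arrays as deposited, so it lay on the FN1 side of both after turning. USP36, a nucleolar deubiquitinase, stood at -0.03 and 0.11 on them. UBE2T, which ubiquitinates FANCD2 in the Fanconi anaemia pathway, stood at -0.57 and 0.07 on the E22A arrays as deposited. PSMA3, PSMB8, PSMC1 and USP19 had a value on E22A array 2 alone, and PSMD3, PSME4, PSMG1, UBE2D4 and USP1 on no array.

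USP9Y, the Y-linked relative of USP9X, falls outside the families' rule and was chosen after its values were seen. Its spots stood at -0.40 and -0.64 on the E22A arrays and at -0.56 and 0.74 on the E22B arrays as deposited, on the CDH1 side of both E22B arrays. USP9X itself stood at 0.10 and 0.19 there. Hybridisation was not shown to tell the pair apart, so the values are those of the spots and cannot be assigned to a USP9Y transcript.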
